A study of Mus musculus with 12 samples.

Results

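The 10 genes described here carry iron into cells, store it, export it, release it from haem or sense it. They are Trf, Tfrc, Slc11a2, Slc11a1, Slc40a1, Fth1, Ftl1, Hmox1, Ireb2 and Aco1, and all 10 were found by Ensembl identifier among the 21885 genes of the table. The list was chosen by function, but with earlier results of the same libraries known, so the values of the 10 genes are given as a description and without p values. The data are RNA-seq values of sorted mouse cells, in 12 libraries, 4 per group. The P80R B-ALL libraries held GFP-positive B-cell acute lymphoblastic leukaemia (B-ALL) cells of genotype PAX5 P80R, sorted from primary recipients 1300, 1301, 1302 and 1308. The Pax5 KO libraries held common lymphoid progenitors and pre-pro-B cells sorted from fetal liver that lacks Pax5. The Pax5 WT libraries held fetal liver cells of the pro-B and pre-BI stages with both Pax5 alleles intact. No source used here gives the promoter behind the mutant, the endogenous Pax5 genotype of the leukaemia donor cells, the clonality of the leukaemias or the age of the recipients. Genotype and sorted stage differ together in every comparison and cannot be told apart. The leukaemias also differ from both fetal liver groups in being malignant and in coming from recipients, not fetal liver. These differences cannot be told apart from genotype or stage either. The labels do not say that the Pax5 KO or the Pax5 WT libraries came from separate animals, so p values measure only the spread between these libraries, which may be technical.

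Values are scaled read counts, that is, whole reads divided by 1 factor per library. Depth was 24914250 to 29386256 reads per library in P80R B-ALL, 36871775 to 43513852 in Pax5 KO and 33191950 to 39465256 in Pax5 WT. Pax5, the gene removed in the knockout, had 847, 1146, 1316 and 255 scaled reads in the 4 leukaemias, 229.9 to 267 in Pax5 KO and 6194 to 7315 in Pax5 WT, so the 8 fetal liver labels matched it. All 10 B-lineage markers listed (among them Cd79a and Vpreb1) had at least 10 scaled reads in every library. The leukaemias varied far more among themselves than the fetal liver libraries did, with a median SD of the log2 value of 0.467 in P80R B-ALL, 0.114 in Pax5 KO and 0.159 in Pax5 WT. Recipients 1300 and 1308 stood apart. Their erythroid markers, led by the globins Hbb-bs and Hbb-bt, took 1.15% and 2.44% of reads, against 0.0988% and 0.0901% in recipients 1301 and 1302. Granulocyte and monocyte markers summed to 151936 and 264191 scaled reads in recipients 1300 and 1308, against 14164 and 7183 in recipients 1301 and 1302.

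Transferrin, the product of Trf, carries ferric iron in plasma, and the transferrin receptor encoded by Tfrc takes it into the cell. Slc11a2 (DMT1) moves iron out of the endosome, Slc11a1 (NRAMP1) does so in the phagosome of macrophages, and Slc40a1 (ferroportin) is the exporter. Ferritin, built of heavy (Fth1) and light (Ftl1) chains, stores iron in the cytosol, and haem oxygenase 1 (Hmox1) frees iron from haem. When iron is scarce, the iron regulatory proteins encoded by Aco1 (IRP1) and Ireb2 (IRP2) bind hairpins called iron-responsive elements. Binding in a 5′ UTR blocks translation, and binding in the 3′ UTR of Tfrc protects the transcript from decay. Erythroid precursors take up much iron, and macrophages that clear red cells return it through Hmox1 and Slc40a1.

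The hairpins are shown because 5 of the 10 genes, and Epas1, carry them. They are printed from GENCODE M21 transcripts on the GRCm38 build, 30 bases each, with the 6-base loop in capitals. The search, on the transcript's strand only, took a C, any 5 bases and the loop letters CAGTG followed by A, C or T. The next bases had to pair with the 5 before the loop with at most 1 skipped base. Below the bulged C, at least 3 of 5 pairs were required.
Tfrc 3′ UTR, chr16:32631219-32631248, plus strand: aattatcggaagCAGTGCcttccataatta
Tfrc 3′ UTR, chr16:32631598-32631627, plus strand: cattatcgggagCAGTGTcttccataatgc
Tfrc 3′ UTR, chr16:32631663-32631692, plus strand: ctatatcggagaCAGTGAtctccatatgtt
Tfrc 3′ UTR, chr16:32631710-32631739, plus strand: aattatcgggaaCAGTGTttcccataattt
Slc11a2 3′ UTR, chr15:100395152-100395181, minus strand: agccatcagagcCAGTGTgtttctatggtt
Slc40a1 5′ UTR, chr1:45925464-45925493, minus strand: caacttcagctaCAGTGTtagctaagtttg
Fth1 5′ UTR, chr19:9982732-9982761, plus strand: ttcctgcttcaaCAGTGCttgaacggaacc
Ftl1 5′ UTR, chr7:45459778-45459807, minus strand: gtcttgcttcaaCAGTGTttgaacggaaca
Epas1 5′ UTR, chr17:86753768-86753797, plus strand: tacaatcctcggCAGTGTcctgagactgta
The 2 ferritin elements carry the same letters on both arms of the upper stem. The 4 Tfrc elements found lie within one stretch of its 3′ UTR, and elements outside the rule would be missed. By this rule 0.0911% of 21951 protein-coding genes had a match in a 5′ UTR and 0.355% in a 3′ UTR. The rule was set with the known elements in view, and a match is a description. RNA levels do not show how far a transcript is translated.

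**Figure D1:**
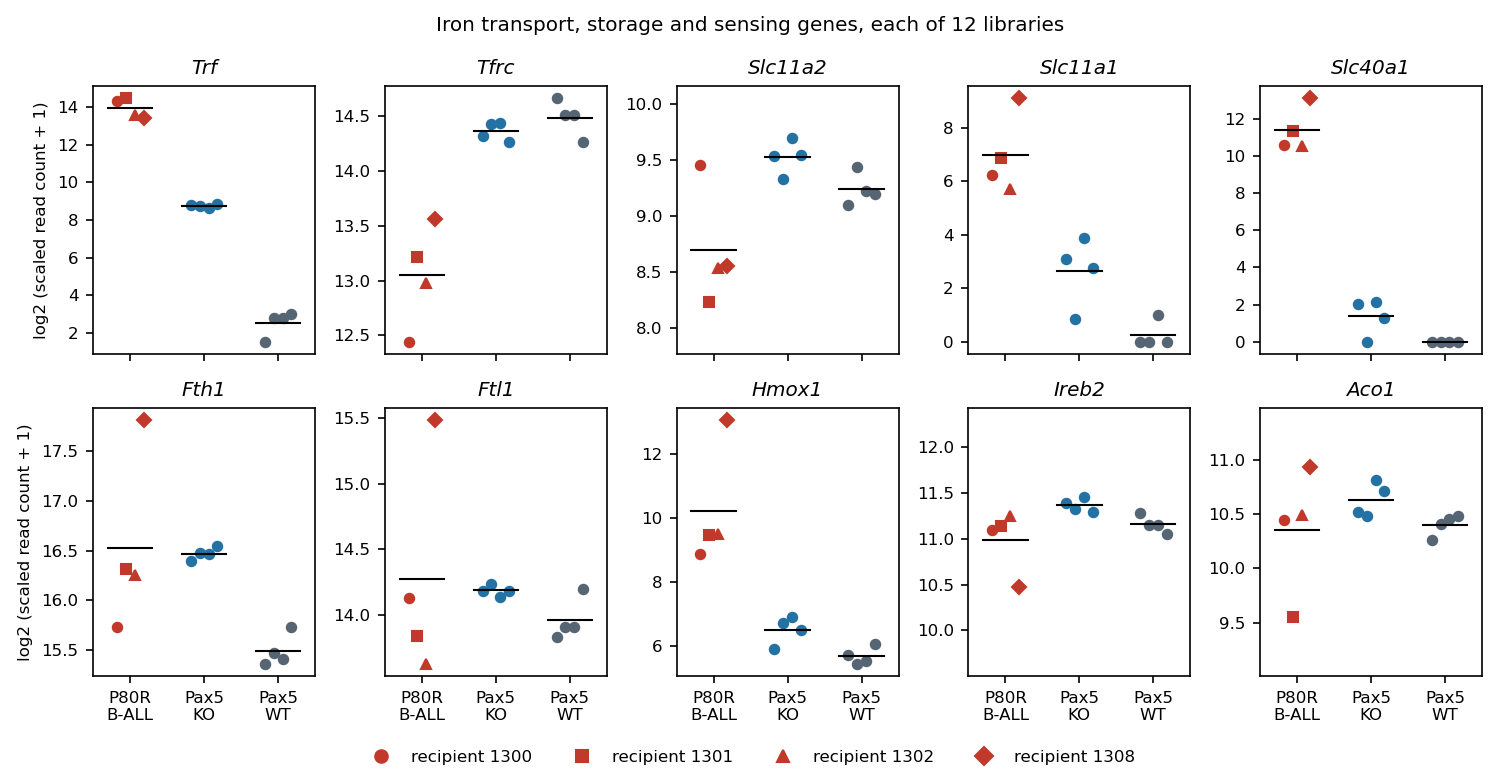
log2 of the scaled read count plus 1 (y axis) of the 10 iron genes in each library, with P80R B-ALL left, Pax5 KO in the middle and Pax5 WT right. Points are libraries, marker shapes in P80R B-ALL are recipients, bars are means, and each panel has its own axis. Trf, Slc11a1, Slc40a1 and Hmox1 lie above both fetal liver groups in all 4 leukaemias, and Tfrc lies below them.

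Iron uptake genes moved in opposite directions in the leukaemias: the carrier gene Trf was far higher and the receptor gene Tfrc lower than in either fetal liver group. Trf (ENSMUSG00000032554, chr9:103204001-103230444, minus strand) had 20845, 22910.2, 12111 and 10927 scaled reads in recipients 1300, 1301, 1302 and 1308. It had 445, 431, 402 and 465 in the Pax5 KO libraries and 1.89, 6.00, 5.93 and 6.88 in the Pax5 WT libraries. The 3 groups did not overlap, and the leukaemias lay highest and Pax5 WT lowest. The means were 16698 ± 6059 in P80R B-ALL, 436 ± 26.6 in Pax5 KO and 5.18 ± 2.23 in Pax5 WT (SD, n = 4 each). P80R B-ALL was thus 38.3-fold above Pax5 KO (log2 difference 5.18 ± 0.24 SE) and 3226-fold above Pax5 WT (11.43 ± 0.39), and Pax5 KO was 84.2-fold above Pax5 WT (6.24 ± 0.32). The Pax5 WT values rest on 2, 6, 6 and 8 reads, so the size of both differences from Pax5 WT is uncertain. Folds are ratios of means, while log2 differences use values plus 1, so the 2 need not match. Since Trf is best known as a liver product, hepatocyte markers were read beside it. Alb, Apoa1, Ttr, Serpina1a and Fgb were at 0 in all 12 libraries, and the 8 markers summed to 18.6 to 110.7 scaled reads in P80R B-ALL, 63.3 to 107 in Pax5 KO and 18.9 to 40.6 in Pax5 WT. Trf was lowest in recipient 1308, which had the highest macrophage and erythroid marker sums. The part of RNA from hepatocytes, macrophages or other cells in the Trf values was not tested. In the annotation Trf shares 2108 exon bases with a read-through gene on the same strand, Gm20425, whose reads could not be separated from it.

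Tfrc (ENSMUSG00000022797, chr16:32608920-32632794, plus strand) had 5567, 9526, 8077 and 12099 scaled reads in recipients 1300, 1301, 1302 and 1308. Its level was 20390.1, 22085, 22137 and 19720.1 in the Pax5 KO libraries and 25932, 23267, 23246 and 19602 in the Pax5 WT libraries. Every leukaemia lay below every fetal liver library, and the fetal liver groups overlapped. The mean was 8817 ± 2732 in P80R B-ALL, 21083 ± 1218 in Pax5 KO and 23012 ± 2599 in Pax5 WT. That made P80R B-ALL 0.418 times Pax5 KO (log2 difference -1.31 ± 0.22) and 0.383 times Pax5 WT (-1.43 ± 0.22). Pax5 KO against Pax5 WT gave -0.12 ± 0.08.

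The endosomal transporter gene Slc11a2 (ENSMUSG00000023030, chr15:100387898-100425072, minus strand) was at 699, 300.3, 369.7 and 375 in recipients 1300, 1301, 1302 and 1308. Pax5 KO libraries had 742, 643, 829 and 745, and Pax5 WT libraries had 548, 692, 598 and 587. Recipients 1301, 1302 and 1308 lay below all 8 fetal liver libraries, while recipient 1300 lay among them. The log2 difference was -0.83 ± 0.26 against Pax5 KO and -0.55 ± 0.26 against Pax5 WT. Between the fetal liver groups it was 0.29 ± 0.10, and these groups overlapped.

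Slc11a1 (ENSMUSG00000026177, chr1:74375195-74386062, plus strand), the phagosomal transporter gene, had 74.9, 116, 52.1 and 555 scaled reads in recipients 1300, 1301, 1302 and 1308. The Pax5 KO libraries had 7.61, 0.822, 13.7 and 5.78, and 3 of the 4 Pax5 WT libraries were at 0 with the other at 0.989. All leukaemias lay above all fetal liver libraries, and recipient 1308 far above the other leukaemias. P80R B-ALL was 28.6-fold above Pax5 KO (log2 difference 4.34 ± 0.89). Against Pax5 WT, where a single read was seen, the ratio of means was 807, with a 95% counting interval of 145 to 31867. Pax5 KO against Pax5 WT gave a ratio of 28.2, with an interval of 5.07 to 1116. These intervals cover counting error only. Without recipient 1308 the P80R B-ALL mean was 80.9, against 199 with it.

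The exporter gene Slc40a1 was expressed in the leukaemias and at or near 0 in both fetal liver groups. Slc40a1 (ENSMUSG00000025993, chr1:45908068-45926523, minus strand) had 1580.4, 2627, 1492 and 8933 scaled reads in recipients 1300, 1301, 1302 and 1308. It had 3.05, 0, 3.43 and 1.44 in the Pax5 KO libraries and 0 in all 4 Pax5 WT libraries. The mean was 3658 ± 3554 in P80R B-ALL and 1.98 ± 1.57 in Pax5 KO, where 10 reads were seen in all, and the ratio of 1848 had a 95% counting interval of 1005 to 3853. Against Pax5 WT it was at least 1286-fold higher, taking a floor of 3 reads per library. Without recipient 1308 the P80R B-ALL mean was 1900.03. Between the fetal liver groups no fold is given, since Pax5 WT had no read and the Pax5 KO mean lay under that floor.

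Several markers of tissue macrophages moved with Slc40a1 and Slc11a1, though not all of them. The 11 markers listed summed to 5207, 7577, 6788 and 36541 scaled reads in recipients 1300, 1301, 1302 and 1308, to 2029.7 to 2312 in Pax5 KO and to 32.0 to 82.2 in Pax5 WT. The highest 2 by mean were Vcam1, an adhesion molecule, and the complement gene C1qb. C1qc, Timd4 and Spic were at 0 in all Pax5 KO libraries, and Adgre1, C1qa, C1qb, C1qc, Timd4, Marco and Spic were at 0 in all Pax5 WT libraries. Against Pax5 KO, 5 of the 9 markers tested were higher in P80R B-ALL (C1qa, C1qb, C1qc, Vcam1 and Spic), and all 5 would have failed the filter on low values without the leukaemias. Csf1r, the macrophage growth factor receptor gene, had 141, 372, 659 and 1305 scaled reads in recipients 1300, 1301, 1302 and 1308 and 989 to 1078 in Pax5 KO. Mrc1, the mannose receptor gene, had 606, 469, 608 and 1773 in the same recipients and 719 to 962 in Pax5 KO, so both overlapped between these groups. Slc40a1 divided by this marker sum was 0.304, 0.347, 0.220 and 0.244 in recipients 1300, 1301, 1302 and 1308, while Slc40a1 itself ranged 5.99-fold among them. Trf divided by the same sum was 4.00, 3.02, 1.78 and 0.299. In sorted bulk cells, fewer cells of a type and less RNA per cell cannot be told apart, and the part of macrophage RNA in these results was not tested.

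**Figure D2:**
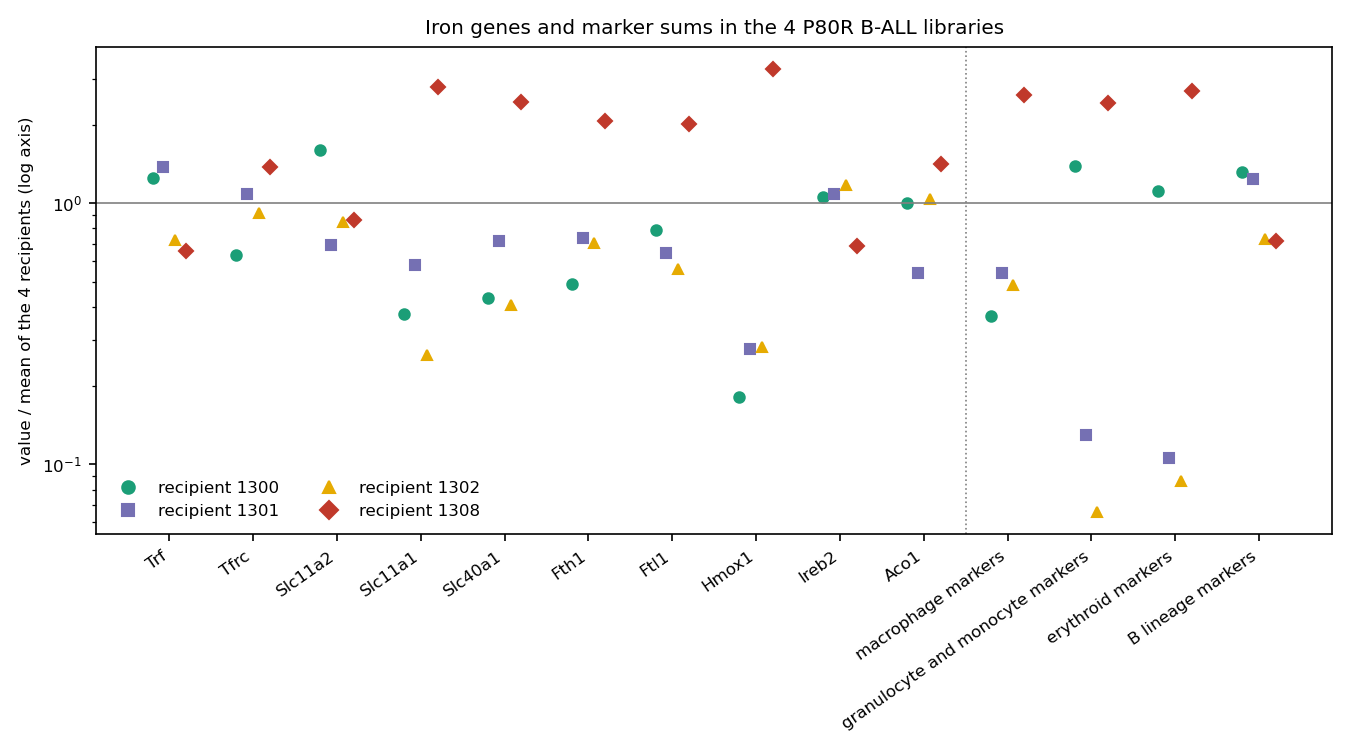
Level in each leukaemia divided by the mean of the 4 (y axis, log scale) for the 10 iron genes and for the summed scaled reads of 4 marker lists. Colours and shapes mark the recipients. Recipient 1308 is highest for Tfrc, Slc11a1, Slc40a1, Fth1, Ftl1, Hmox1 and Aco1 and for the macrophage, granulocyte and erythroid sums. It is lowest for Trf, Ireb2 and the B-lineage sum.

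The ferritin genes were the most abundant of the 10 per kilobase of exon in every group, and Fth1 in Pax5 KO exceeded Fth1 in Pax5 WT. Fth1 (ENSMUSG00000024661, chr19:9980598-9985098, plus strand) had 54459.6, 81334, 78026 and 228592 scaled reads in recipients 1300, 1301, 1302 and 1308. The Pax5 KO libraries had 86299, 90896, 90668 and 95399, and the Pax5 WT libraries 42235, 45543, 43733 and 54552. All Pax5 KO libraries lay above all Pax5 WT libraries, and the leukaemias spread across both. Pax5 KO was 1.95-fold above Pax5 WT (log2 difference 0.97 ± 0.07). P80R B-ALL gave 0.05 ± 0.38 against Pax5 KO and 1.03 ± 0.38 against Pax5 WT. Without recipient 1308 its mean was 71273, against 110603 ± 79564 with it.

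Ftl1 (ENSMUSG00000050708, chr7:45457944-45459884, minus strand) had 17929.7, 14730.4, 12692 and 45726 scaled reads in recipients 1300, 1301, 1302 and 1308. The values were 18623, 19357, 18085 and 18668 in Pax5 KO and 14632, 15388, 15394 and 18849 in Pax5 WT. The groups overlapped in all 3 comparisons, and recipient 1308 alone was above every other library. The log2 difference of P80R B-ALL was 0.08 ± 0.35 with Pax5 KO and 0.31 ± 0.35 with Pax5 WT, and it was 0.22 ± 0.07 for Pax5 KO against Pax5 WT. Without recipient 1308 the P80R B-ALL mean was 15117, against 22769.5 with it. A processed copy, Ftl1-ps1, had 156 to 425 scaled reads per library, and no source used here says how reads that match both were counted. The 6 Fthl17 copies of Fth1 were at 0 throughout. The part of the macrophage and erythroid markers, both highest in recipient 1308, in the ferritin values was not tested.

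The ratio of heavy to light chain transcripts in Pax5 KO exceeded that in Pax5 WT. Exon length was that of all annotated transcripts merged, so the size of this ratio depends on the annotation. The same lengths served all groups. Per kilobase of exon, Fth1 over Ftl1 was 1.17, 2.13, 2.38 and 1.93 in recipients 1300, 1301, 1302 and 1308. It was 1.79 to 1.97 in the Pax5 KO libraries and 1.10 to 1.14 in the Pax5 WT libraries. All leukaemias and all Pax5 KO libraries lay above all Pax5 WT libraries, recipient 1300 only just. The ratio of Fth1 to Tfrc, in scaled reads, was 11.7 ± 4.82 in P80R B-ALL, 4.32 ± 0.35 in Pax5 KO and 2.06 ± 0.50 in Pax5 WT. It ran from 8.54 to 18.9 in the leukaemias, above the 4.84 of the highest fetal liver library.

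Hmox1, the inducible haem oxygenase gene, was higher in every leukaemia. Hmox1 (ENSMUSG00000005413, chr8:75093621-75100589, plus strand) had 468, 715, 724 and 8404 scaled reads in recipients 1300, 1301, 1302 and 1308. It had 59.4, 106, 120.0 and 91.0 in Pax5 KO and 52.0, 43.0, 45.5 and 66.2 in Pax5 WT. No leukaemia overlapped a fetal liver library, and recipient 1308 was 13.2-fold above the mean of the other leukaemias. The log2 difference was 3.70 ± 0.81 against Pax5 KO, 4.53 ± 0.79 against Pax5 WT and 0.83 ± 0.26 for Pax5 KO against Pax5 WT. Without recipient 1308 the P80R B-ALL mean was 636, against 2578 ± 3886 with it, and the log2 differences were 2.76 against Pax5 KO and 3.59 against Pax5 WT. Divided by the macrophage marker sum, Hmox1 was 0.0899, 0.0944, 0.107 and 0.230 in recipients 1300, 1301, 1302 and 1308.

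The genes of the iron regulatory proteins had log2 differences between -0.37 and 0.23 in the 3 comparisons. Ireb2 (ENSMUSG00000032293, chr9:54863789-54912530, plus strand) had 2186, 2257, 2436 and 1417 scaled reads in recipients 1300, 1301, 1302 and 1308. Pax5 KO libraries had 2675, 2558, 2805 and 2509, and Pax5 WT libraries 2488, 2264, 2276 and 2112. All Pax5 KO libraries lay above all others, although the step to Pax5 WT was small (log2 difference 0.21 ± 0.07). The log2 difference for P80R B-ALL was -0.37 ± 0.18 against Pax5 KO and -0.17 ± 0.18 against Pax5 WT. Aco1 (ENSMUSG00000028405, chr4:40143081-40198338, plus strand) had 1392, 749, 1439 and 1958 in recipients 1300, 1301, 1302 and 1308. It had 1465, 1436, 1803 and 1685 in Pax5 KO and 1228, 1364, 1402 and 1431 in Pax5 WT. The leukaemias spanned both fetal liver groups, with log2 differences of -0.28 ± 0.27 against Pax5 KO and -0.05 ± 0.26 against Pax5 WT. Pax5 KO libraries all lay above Pax5 WT libraries (0.23 ± 0.09).

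**Figure D3:**
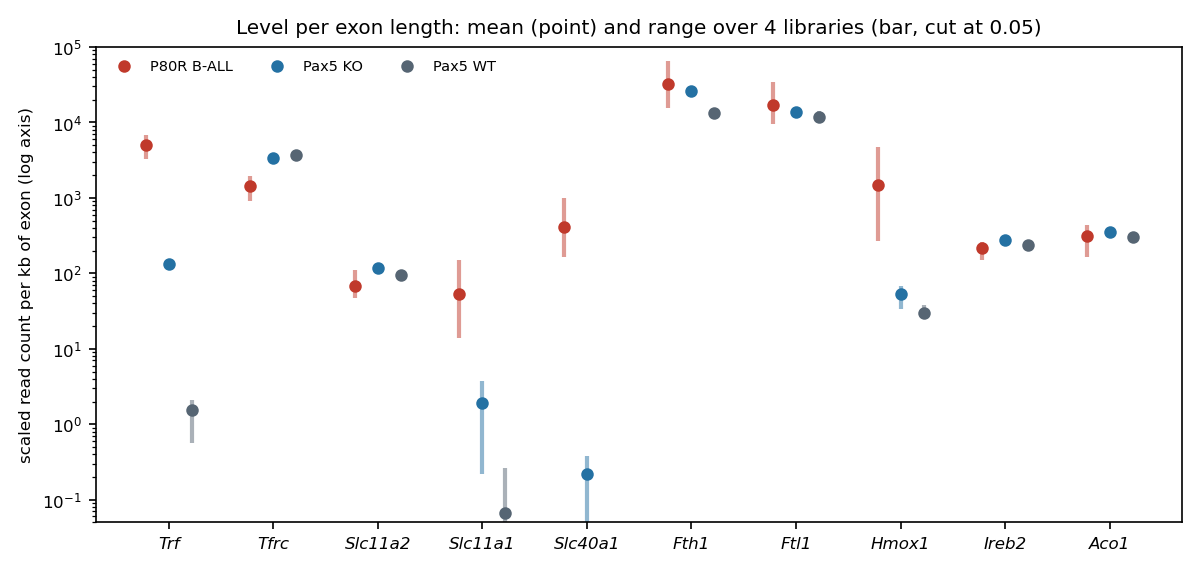
Scaled read count per kilobase of exon (y axis, log scale) of the 10 genes, with P80R B-ALL left, Pax5 KO in the middle and Pax5 WT right for each gene. Points are means and bars the range over 4 libraries, and groups with a mean of 0 (Slc40a1 in Pax5 WT) have no point. Fth1 and Ftl1 rank first and second in all 3 groups.

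Ordered by mean level per kilobase of exon, Fth1 came first and Ftl1 second in all 3 groups. The order depends on the annotation, since exon length was that of all annotated transcripts merged. The third place was held by Trf in P80R B-ALL (5030 ± 1825 scaled reads per kb), by Tfrc in Pax5 KO (3409 ± 197) and by Tfrc in Pax5 WT (3721 ± 420). Hmox1 followed in the leukaemias (1472 ± 2219), just above Tfrc (1426 ± 442), but only through recipient 1308. Without recipient 1308 Hmox1 averaged 363 and Tfrc 1249 scaled reads per kb. Aco1 and then Ireb2 followed Tfrc in both fetal liver groups, at 355 ± 39.2 and 278 ± 13.9 in Pax5 KO and at means of 302 and 241 in Pax5 WT, and their library values did not overlap within either group. Slc40a1, at 406 ± 395 in the leukaemias, was last in both fetal liver groups.

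Counted over the fit of all genes, with an adjusted p under 0.05 called, 4 members were higher and 1 lower in P80R B-ALL against Pax5 WT, where 21.0% and 18.9% of all 12200 genes tested were called higher and lower. Against Pax5 KO, 4 were higher and 2 lower, beside 17.6% and 20.8% of all genes. Of the Pax5 KO against Pax5 WT differences, 8 were called higher and 0 lower, beside 35.7% and 29.1%. Nothing is read from these shares, since the list was drawn up with results known. Leukaemias lay wholly above Pax5 WT for 4 members and wholly below for 1, beside 21.2% and 19.4% of all genes. Against Pax5 KO this held for 4 above and 2 below, beside 19.5% and 22.9%, and for Pax5 KO against Pax5 WT for 4 above and 0 below, beside 32.4% and 26.7%. Slc40a1 and Slc11a1 passed the filter on low values only through the leukaemias, so the filter itself favoured a difference and their calls are no support.

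Several of these member calls rested on single libraries. Since the members were chosen with results known, a call that held is a description and no support. Slc11a2 against Pax5 KO lost its call when any library but that of recipient 1300 was left out. Fth1 in P80R B-ALL against Pax5 WT, not called with all libraries, was called without recipient 1300 and without recipient 1308, and Slc11a2 against Pax5 WT was called without recipient 1300. For Pax5 KO against Pax5 WT, the calls of Trf, Slc11a1 and Fth1 held in all 8 fits that left out 1 library. Hmox1 and Ireb2 lost theirs without Pax5 KO library 3. Aco1 lost its call in 5 of the 8 (without Pax5 KO libraries 3 or 4 or Pax5 WT libraries 1, 2 or 3), and Slc11a2 in 5 (Pax5 KO 1, 3 or 4, Pax5 WT 1 or 3). Ftl1 lost its call in 4 (Pax5 KO 2, Pax5 WT 1, 2 or 3), and Tfrc was called lower without Pax5 WT library 4.

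**Figure D4:**
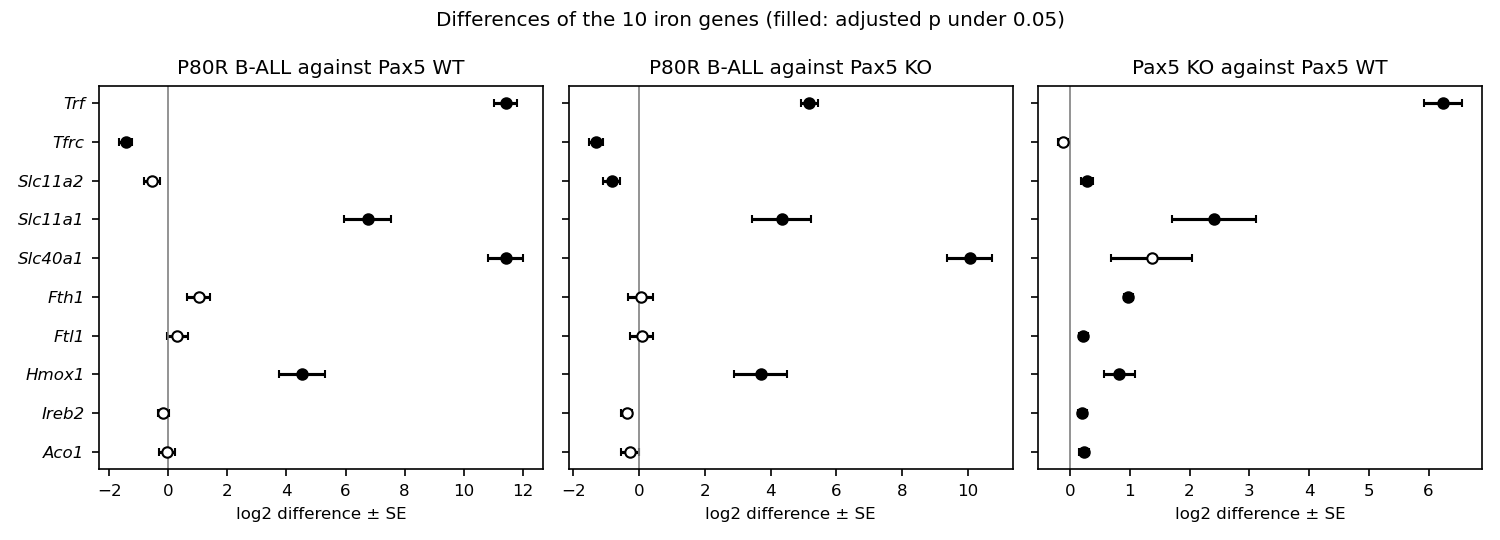
log2 difference of the 10 genes with its standard error (x axis) for P80R B-ALL against Pax5 WT (left), against Pax5 KO (middle) and for Pax5 KO against Pax5 WT (right), each panel on its own scale. Filled points have an adjusted p under 0.05 in the fit of all genes, a description only, since the members were chosen with results known. Values against groups at or near 0 (Slc40a1, and Slc11a1 and Trf in Pax5 WT) depend on the added 1. Trf differs in all 3 panels, and Tfrc is the member furthest below 0 in both leukaemia panels.

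Other genes of iron handling were read from a list of 85, of which 69 could be tested. In P80R B-ALL against Pax5 WT, 19 rose, 7 fell and 43 were not past the threshold (median log2 difference 0.36, against -0.0036 over all genes). Of all genes tested, 21.0% were called higher and 18.9% lower in this comparison. Against Pax5 KO, 23 rose, 8 fell and 38 were not past the threshold (median 0.42, against -0.11), beside 17.6% and 20.8% of all genes. Without recipients 1300 and 1308 these counts were 19 and 9 against Pax5 WT, and 23 and 11 against Pax5 KO. That omission moved the medians to 0.089 against Pax5 WT and 0.19 against Pax5 KO. For Pax5 KO against Pax5 WT, 15 rose, 21 fell and 33 were not past the threshold (median -0.072, against 0.062), beside 35.7% and 29.1% of all genes. The same shares apply to the counts by role below, and nothing is read from a count near its share. Lcn2, Cp, Alas2 and Epas1 would have failed the filter on low values without the leukaemias. The filter itself thus favoured a rise in these genes, and they are given below without p values. Leaving these 4 out of the rises leaves 15 against Pax5 WT and 19 against Pax5 KO. The 2 leukaemia comparisons share the leukaemia libraries, so their values are given side by side and their likeness is no result. Over all genes, P80R B-ALL against Pax5 KO gave 2151 higher and 2532 lower calls, whereas edgeR on the recovered reads gave 2519 higher and 1833 lower.

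Among the 9 haem synthesis genes tested, 4 rose and 0 fell against Pax5 WT, beside 21.0% and 18.9% of all genes. Against Pax5 KO 4 rose and 0 fell, beside 17.6% and 20.8%. Of those 4, Alas2 was favoured by the filter in both comparisons, and leaving it out leaves 3 of 8 in each. Without recipients 1300 and 1308 the counts for all 9 were 4 and 0 against Pax5 WT, and 3 and 0 against Pax5 KO. That omission lowered the list's median log2 difference to 0.21 against Pax5 WT, from 0.54, and to 0.29 against Pax5 KO, from 0.86. Uros, uroporphyrinogen III synthase, had 1859 ± 143 scaled reads in P80R B-ALL, 669.6 ± 29.6 in Pax5 KO and 724 ± 42.7 in Pax5 WT. The increase was 2.78-fold over Pax5 KO (adjusted p = 0.000134) and 2.57-fold over Pax5 WT (adjusted p = 0.000105). Alas2, the erythroid form of the first enzyme, had 5421, 635, 689.7 and 21074 in recipients 1300, 1301, 1302 and 1308, against 0 in all Pax5 KO libraries and at most 1.89 in the Pax5 WT libraries. It was high in the same 2 recipients as the erythroid markers, whose part was not tested, and its exons overlap those of Apex2 on the opposite strand. Fech (4293, 1010, 1459 and 8691 in recipients 1300, 1301, 1302 and 1308) and Cpox were also highest in those 2 recipients. Alas1 and Uros were not. In Pax5 KO against Pax5 WT, 2 of the 9 rose and 2 fell. Alad, the second enzyme, fell to 817 ± 48.8 in Pax5 KO, against 1299 ± 48.9 in Pax5 WT (adjusted p = 6.26e-06).

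Among tested genes of haem transport and breakdown other than Hmox1, 0 were called lower in either leukaemia comparison. Higher were 4 of 9 against Pax5 WT, beside 21.0% of all genes, and 5 of 9 against Pax5 KO, beside 17.6%. Without recipients 1300 and 1308, 4 were higher against Pax5 WT and 6 against Pax5 KO, and the median log2 difference was 0.30 against Pax5 WT, against 1.26 with them, and 1.11 against Pax5 KO, against 1.29 with them. Blvra, biliverdin reductase A, which acts on the product of Hmox1, had 3447 ± 670.2 scaled reads in P80R B-ALL, 1384 ± 41.4 in Pax5 KO and 1401 ± 125 in Pax5 WT. The log2 difference was 1.29 ± 0.16 against Pax5 KO (adjusted p = 0.000694) and 1.28 ± 0.17 against Pax5 WT (adjusted p = 0.000473). Cd163, the macrophage receptor for haemoglobin bound to haptoglobin, had 2911, 314, 473 and 1423 in recipients 1300, 1301, 1302 and 1308, against at most 43.4 in Pax5 KO and 0 in Pax5 WT. Hp, haptoglobin, had 622, 199, 86.8 and 1616 in the same recipients, against 28.3 to 44.9 in Pax5 KO and 0 in Pax5 WT. Both rose in P80R B-ALL and in Pax5 KO over Pax5 WT, with adjusted p = 2.19e-05 and 2.92e-07 for Cd163 and 0.000115 and 3.77e-07 for Hp. Abcg2, a haem exporter, fell to 166 ± 24.8 in Pax5 KO, against 450.4 ± 39.7 in Pax5 WT (adjusted p = 1.56e-06).

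Among uptake and export genes other than the members, 1 of 6 uptake genes was called higher against Pax5 WT. That gene was Lcn2, a siderophore-binding protein of neutrophils, at 2392, 64.0, 12.4 and 3519 in recipients 1300, 1301, 1302 and 1308 and at 0 in all Pax5 WT libraries. It followed the granulocyte markers, whose part was not tested. Against Pax5 KO 3 of 6 were called higher, Lcn2 among them, and 1 lower. Tfr2, the second transferrin receptor, had 47.6 ± 17.9 in P80R B-ALL, 1.97 ± 1.47 in Pax5 KO and 51.9 ± 18.6 in Pax5 WT. It rose in P80R B-ALL over Pax5 KO (adjusted p = 0.00202) and fell in Pax5 KO against Pax5 WT (adjusted p = 1.58e-05). Steap3, a reductase of endosomal iron, fell to 936 ± 389.5 in P80R B-ALL, against 1816 ± 147 in Pax5 KO (adjusted p = 0.0309), but the call was lost with edgeR and when any 1 Pax5 KO library was left out. Cp, the ferroxidase ceruloplasmin that works with ferroportin, had 108, 146, 23.6 and 475 in recipients 1300, 1301, 1302 and 1308, at most 8.57 in Pax5 KO and at most 3.78 in Pax5 WT. Every leukaemia lay above every fetal liver library.

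Around ferritin and its sensors, Pcbp1 and Pcbp2, the iron chaperones that load ferritin, fell against Pax5 WT in both other groups, and of the 3 storage genes tested 0 rose in P80R B-ALL against Pax5 WT. Pcbp1 had 14435 ± 862 in P80R B-ALL, 16153 ± 897 in Pax5 KO and 21298 ± 1489 in Pax5 WT (adjusted p = 0.00456 for P80R B-ALL and 0.00017 for Pax5 KO). Pcbp2 had 2913 ± 143 in P80R B-ALL, 2904 ± 173 in Pax5 KO and 4378 ± 496 in Pax5 WT (adjusted p = 0.00592 for P80R B-ALL and 4.87e-05 for Pax5 KO). Ncoa4, the receptor that delivers ferritin to the lysosome, had 3724 ± 269.6 in Pax5 KO and 1257 ± 123 in Pax5 WT, a 2.96-fold rise (adjusted p = 9.94e-09). In P80R B-ALL it was at 1912, 1275, 1877 and 3972 in recipients 1300, 1301, 1302 and 1308, a fall against Pax5 KO (adjusted p = 0.0499) that was lost in 12 of 16 alternatives. Of the 8 that left out 1 library, only the one without recipient 1308 kept it. Fbxl5, the iron-sensing ligase subunit that degrades IRP2, had 4718 ± 1618 in P80R B-ALL, 1533 ± 87.3 in Pax5 KO and 3441 ± 204 in Pax5 WT. It rose 3.08-fold in P80R B-ALL over Pax5 KO (adjusted p = 0.00159) and fell to 0.445 times Pax5 WT in Pax5 KO (adjusted p = 2.05e-08). Hfe, a regulator of the hepcidin axis, had 988 ± 435 in P80R B-ALL, 214 ± 34.7 in Pax5 KO and 174 ± 21.3 in Pax5 WT, a rise over Pax5 KO (adjusted p = 0.00146) and over Pax5 WT (adjusted p = 0.000365). The other hepcidin axis gene tested, Neo1, fell to 3.46 ± 6.92 in P80R B-ALL, against 16.0 ± 6.76 in Pax5 WT (adjusted p = 0.0354), a call lost in 7 of the 8 fits that left out 1 library, all but that without recipient 1308. Hamp and Hamp2, the hepcidin genes, were among the 16 genes too low to test.

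The 25 tested genes of mitochondrial iron and iron-sulphur clusters are counted beside the shares of all genes called. In P80R B-ALL against Pax5 WT, 5 rose and 2 fell, beside 21.0% and 18.9%. Against Pax5 KO, 6 rose and 3 fell, beside 17.6% and 20.8%. In Pax5 KO against Pax5 WT, 5 rose and 6 fell, beside 35.7% and 29.1%. Hscb, a co-chaperone of cluster transfer, rose in P80R B-ALL against both fetal liver groups, with 1689 ± 349.6 in P80R B-ALL, 908 ± 65.0 in Pax5 KO and 769 ± 120 in Pax5 WT (adjusted p = 0.00419 and 0.0015). Abcb10, a mitochondrial transporter of haem-forming cells, had 1530 ± 308 in P80R B-ALL, 1147 ± 146 in Pax5 KO and 445 ± 52.0 in Pax5 WT. It rose in both over Pax5 WT (adjusted p = 0.000147 for P80R B-ALL and 6.98e-07 for Pax5 KO).

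The 10 regulators and targets of Nrf2 and Bach1, the factors that switch Hmox1 on and off, were counted in the same way. In P80R B-ALL against Pax5 WT, 2 rose and 1 fell, beside 21.0% and 18.9% of all genes. Against Pax5 KO, 1 rose and 2 fell, beside 17.6% and 20.8%. In Pax5 KO against Pax5 WT, 2 rose and 4 fell, beside 35.7% and 29.1%. Gclc, a glutathione synthesis gene, fell in the leukaemias, with 1901 ± 413 in P80R B-ALL, 3113 ± 207 in Pax5 KO and 3559 ± 174 in Pax5 WT (adjusted p = 0.00891 and 0.00226). Srxn1, sulfiredoxin, had 34.2, 34.5, 23.6 and 152 in recipients 1300, 1301, 1302 and 1308 and 86.0 to 109.7 in Pax5 KO, against 0 in all Pax5 WT libraries (adjusted p = 0.00046 and 9.8e-09).

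Epas1, which encodes the HIF-2α subunit named in the title of the study and carries a 5′ UTR hairpin, had 134, 132, 176 and 205 scaled reads in recipients 1300, 1301, 1302 and 1308. It had 7.61, 3.29, 1.71 and 7.95 in the Pax5 KO libraries and 11.3, 7.00, 0 and 8.60 in the Pax5 WT libraries. The leukaemias did not overlap either fetal liver group and varied little among themselves. The mean in P80R B-ALL was 31.5-fold above that of Pax5 KO. Epas1 reached the filter's value of 10 in only 1 fetal liver library, so the filter favoured its rise too and no p is given.

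**Figure D5:**
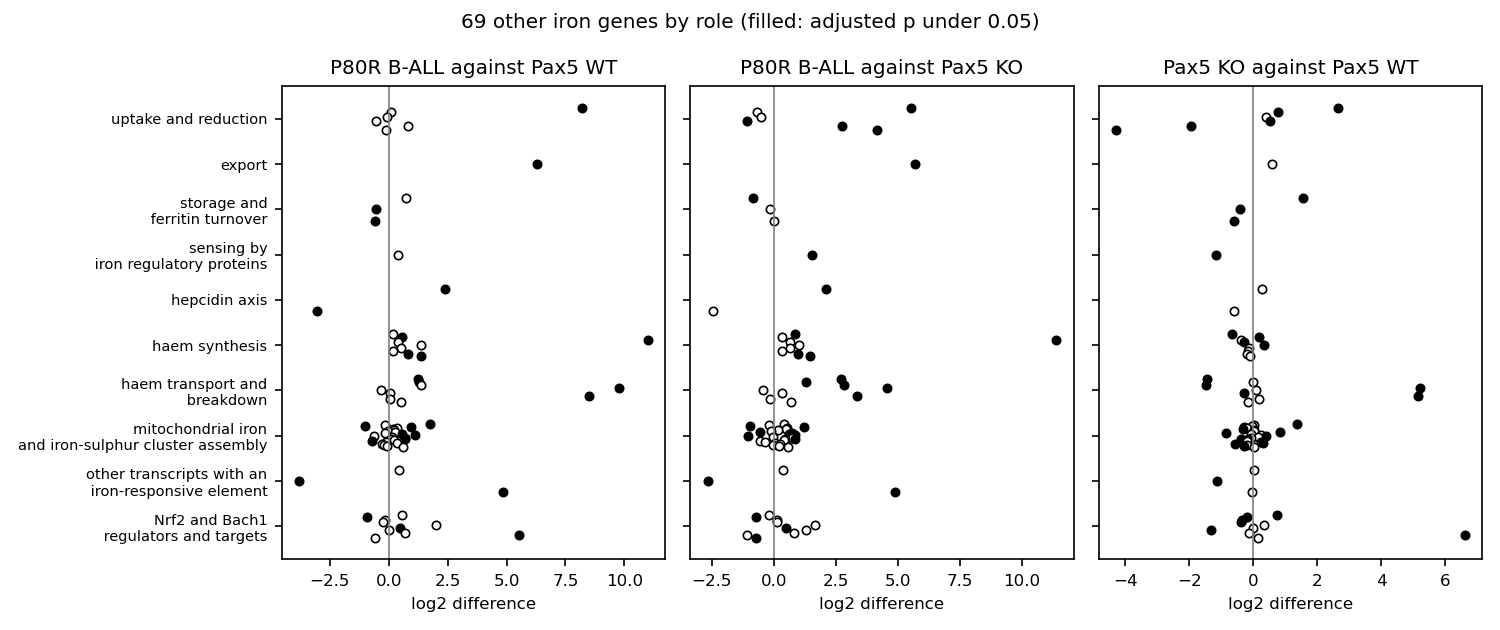
log2 difference (x axis) of the 69 other iron genes tested, by role (y axis), for P80R B-ALL against Pax5 WT (left), against Pax5 KO (middle) and for Pax5 KO against Pax5 WT (right), each panel on its own scale. Points are genes, filled where the adjusted p was under 0.05. No gene of haem synthesis or of haem transport and breakdown is a filled point below 0 in either leukaemia panel.

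For the 3 members with the widest range of group means, the genes closest in pattern were sought by the root mean square difference of centred log2 values over the 12 libraries. For Trf these were Ly86 (0.86), Cd163 (1.10) and Hpgd (1.21), with mean scaled reads of 18147, 1280.0 and 1458 in P80R B-ALL. For Slc40a1 they were the complement genes C1qc (0.76) and C1qa (0.76), then Gm525 (0.94). For Slc11a1 they included Dmpk (0.78) and Il1rn (0.83). C1qc and C1qa are among the macrophage markers listed above, and Cd163, second closest to Trf, is the macrophage receptor described above.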

How the data were processed

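The deposited signal values are read counts that the authors scaled: every value was a whole multiple of its library's smallest positive value (100%, within 0.001), so whole reads were recovered with 1 factor per library, 0.723 to 1.38. The mm39 build, fastp, featureCounts and STAR 2.7.8a are named in the submitters' processing notes. Per the labels' protocols, RNA from lysed sorted cells was made into SMART-Seq v4 libraries, a kit that does not mark strand. No source used here says how the factors were set, which annotation and strand option were used, or how reads matching several genes were counted. Symbols, exon lengths, gene positions and hairpins came from GENCODE M21 (GRCm38, an older build than the authors'). It named 21780 of 21885 identifiers, and 105 had no name.

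The 12200 genes that reached a value of 10 in 4 or more of the 12 libraries were tested on log2 of the value plus 1 with limma 3.58.1 (trend, robust, two-sided, Benjamini-Hochberg threshold 0.05) in R 4.3.3. Each comparison was fitted on its own 8 libraries, because the spread of the leukaemias was several times that of the others. Scripts were tested on simulated data. Alternatives were pseudocounts of 0.5 and 5, no filter, a fit of all 12 libraries, TMM scaling, edgeR 4.0.16 and DESeq2 1.42.0 on the recovered reads, a replicate block, leaving out each library, and leaving out recipients 1300 and 1308. No 2 libraries of a group agreed within counting noise. Floors of 3 reads per library and counting intervals cover counting error only.

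The members and the gene lists were chosen with earlier results of these data known. All members and Epas1 were named, up to 2 genes per list, direction and comparison with the smallest adjusted p were eligible, and not all of these are printed, since some items are not reported here. The labels give no batch.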

Additional observations from a re-analysis of the deposited data

Results flagged for a closer look

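In recipient 1308, 5 of the 10 iron genes passed Dixon's 95% critical value for 4 samples when unlogged scaled reads were used. The ratio is the gap to the nearest recipient divided by the range of all 4. It was not taken on log2 values, the scale of the fits, where a high value stands out less and fewer genes may pass. The values in recipient 1308 were 555 scaled reads for Slc11a1 (gap over range 0.874), 8933 for Slc40a1 (0.847), 228592 for Fth1 (0.846), 45726 for Ftl1 (0.841) and 8404 for Hmox1 (0.968). In the other 3 leukaemias the highest values were 116, 2627, 81334, 17929.7 and 724 for the same genes. Chance flags about 1 in 20 groups only if values are normal, which unlogged read counts need not be. Of the 31 groups of 4 libraries looked at, 5 were flagged. All 5 lay in this 1 library, so they are not independent, and no conclusion is drawn from their number. The macrophage marker sum in this library was 36541, against 5207 to 7577 in the other leukaemias, and its erythroid marker sum was 910076, against 29214 to 378213. The part of either in the 5 values was not tested.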

How the results depend on the processing

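No member or other named gene whose difference was called changed direction under any alternative. Of the 10 members, 5 were called in P80R B-ALL against Pax5 WT, 6 against Pax5 KO and 8 in Pax5 KO against Pax5 WT. In the fit of all 12 libraries, Pax5 KO against Pax5 WT gave 4193 genes, against 7901, and 3 members (Trf, Slc11a1, Fth1) and 17 other iron genes, against 36. That fit adds the spread of the leukaemias to the fetal liver groups. Leaving out 1 library gave 4 to 9 members called in Pax5 KO against Pax5 WT (4 without Pax5 KO library 3, 9 without Pax5 WT library 4, which added Tfrc). With 1 library left out, the genes called in P80R B-ALL against Pax5 KO ran from 3118, without Pax5 KO library 3, to 5315, without recipient 1308, against 4683 with all. Leaving out a Pax5 KO library other than library 3 gave 3132 to 3284 genes, so the drop was not particular to library 3. The cause of the drop was not tested. Without recipients 1300 and 1308 there were 5971, and in the fit of all 12 libraries 5888. Fth1 in P80R B-ALL against Pax5 WT was also called with TMM scaling, edgeR and DESeq2, Slc11a2 against Pax5 KO was called by neither edgeR nor DESeq2, and DESeq2 gave Hmox1 no adjusted p in P80R B-ALL. Without recipients 1300 and 1308, 7 members were called against Pax5 WT and 7 against Pax5 KO. DESeq2 moved the median log2 difference of all genes in P80R B-ALL against Pax5 WT from -0.0036 to 0.12, and edgeR moved that against Pax5 KO from -0.11 to 0.062. Differences of low genes, such as Slc40a1 against Pax5 WT (9.10 with a pseudocount of 5, 14.7 with edgeR), depend on the pseudocount. Of 64 other named results, 16 lost their call under at least 1 alternative. With a replicate block, Pax5 KO against Pax5 WT gave 7987 genes, 8 members and 38 other iron genes. The deviations of libraries with the same replicate number correlated by 0.00493, 0.0216, 0.0318 and 0.0616, all under 0.1, and Pax5 KO library 1 correlated more with Pax5 WT library 4 (0.0141) than with its own number, so the samples share only a number.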
